A study of Arabidopsis thaliana with 9 samples.

Results

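Of 10 Arabidopsis loci grouped as rapid wound response genes without EF-hands, 7 were measured in root tips on Affymetrix arrays, each by 1 of the 22746 probe sets tested. They are STZ (AT1G27730), AT4G29780, the neighbouring small genes AT4G27652, AT4G27654 and AT4G27657, AT1G72240 and AT3G19680. The probe annotation named no probe set for SZF1 (AT3G55980), ERF13 (AT2G44840) or DIC2 (AT4G24570), so these 3 were not analysed here. The group was put together with the result of these same arrays known, and its measured genes were chosen by their decrease in the overexpressor against wild type, so the values of that comparison are a description and their calls are no evidence. The name of the group could not be checked, because no group of tips was left unwounded or wounded on purpose.

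The plants were seedlings 5 days old, grown on full strength MS medium under 16 h light and 8 h dark at 21 degrees, and the outer 3 mm of their roots was cut off with scalpels and frozen at once. ERF115OE expressed the ERF115 open reading frame from the constitutive p35S promoter, and erf115ko carried the T-DNA insertion SALK_021981 in ERF115. Both lines were in the Col-0 background, and untransformed Col-0 was the control. There were 3 arrays per genotype. A constitutive promoter is active outside the cells that normally express a gene, and the labels do not say how many independent transgenic lines were used or whether replicates came from separate cultures, so the spread between arrays may be technical. The design asks how root tip transcripts differ with more ERF115 and with a disrupted ERF115 gene. ERF115 encodes an ethylene response factor, a plant transcription factor.

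Cutting, touching or bending a plant sets off calcium and jasmonate signals within moments, and a set of transcripts accumulates quickly and transiently before most wound genes respond. Many of these early transcripts encode transcription factors and short-lived regulators, and in Arabidopsis the CAMTA factors are known to control part of the set. STZ, also called ZAT10, is a C2H2 zinc finger transcriptional repressor induced by salt, cold, drought and wounding. The gene table used here gives no function for the other 6 measured genes.

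Values are log2 RMA values, so a difference of 1 is a 2-fold change, and they compare arrays for 1 gene, not genes with each other. Array medians lay between 5.04 and 5.13, and correlations between arrays of a genotype were 0.995 to 0.998 across probe sets, which are not independent replicates. No probe set was named as ERF115, so the labels of both lines were not checked against its transcript. Of the root tip meristem markers, 3 of 8 were measured (BBM, AGL42 and AT5G48940), and their mean lay at 5.61 to 5.79 in ERF115OE, 5.99 to 6.07 in erf115ko and 5.90 to 6.16 in Col-0. The 1 measured marker of photosynthetic tissue, RCA, lay at 4.46 to 4.57, 4.40 to 4.82 and 4.22 to 4.47 in the same order, and no root cap marker was named. The file has no detection calls, so no marker can be called present or absent.

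All 7 genes had their lowest mean in ERF115OE, an intermediate mean in erf115ko and their highest mean in Col-0, an order that 24.9% of all probe sets had and that the choice of genes favours. In STZ, the zinc finger repressor, the ERF115OE arrays stood at 4.81, 5.69 and 5.20, the erf115ko arrays at 5.95, 5.57 and 5.44, and the Col-0 arrays at 6.17, 6.60 and 6.27. Every array of either line was below every Col-0 array, while ERF115OE and erf115ko overlapped. The ERF115OE mean was 5.23 ± 0.44 and the Col-0 mean 6.35 ± 0.23 (SD, n = 3 each), a log2 fold change of -1.12 (SE 0.21), or 2.17-fold lower in the overexpressor.

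AT4G29780 showed the widest gap between genotypes among the 7. Its values were 4.86, 6.01 and 5.05 in ERF115OE, 6.68, 5.84 and 5.63 in erf115ko, and 6.90, 7.65 and 7.04 in Col-0. Both lines again lay wholly below Col-0 and overlapped each other. The ERF115OE mean of 5.31 ± 0.61 against 7.20 ± 0.40 in Col-0 is a log2 fold change of -1.89 (SE 0.33), or 3.70-fold lower, and this gene also had the widest spread between replicates in both lines.

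**Figure D1:**
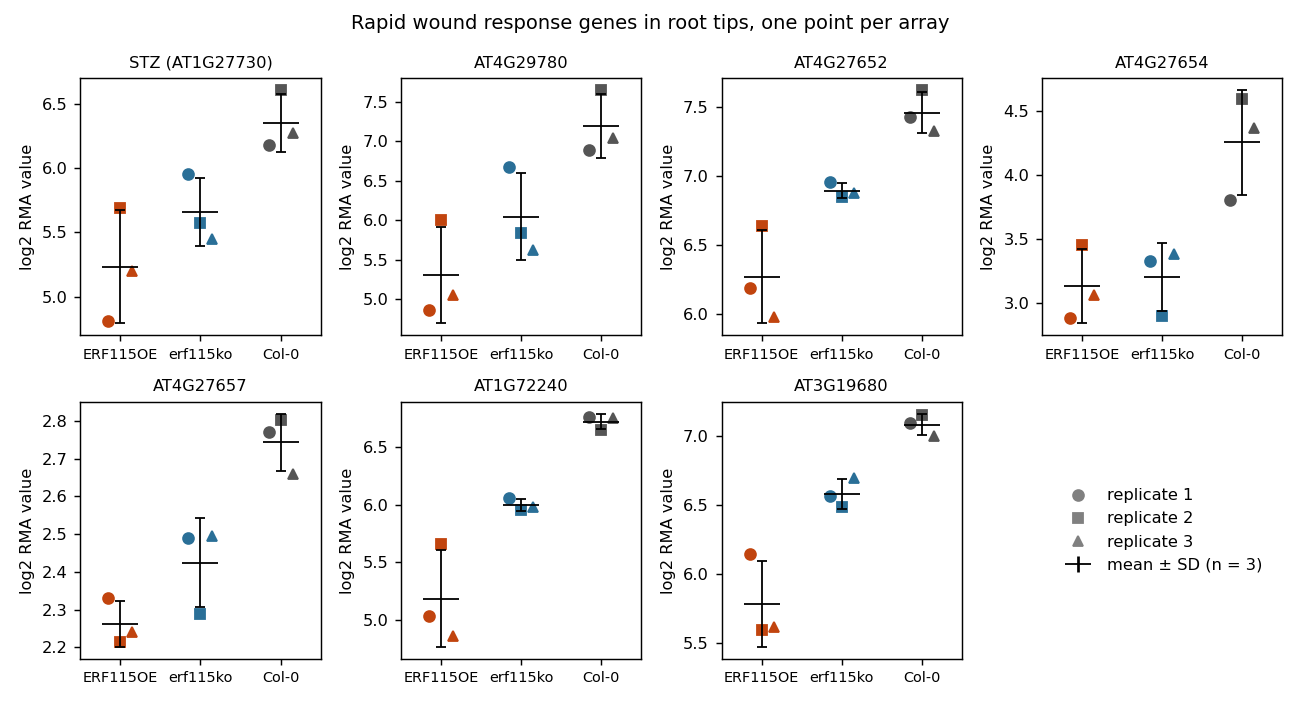
Log2 RMA value (y axis, own scale per panel) of each of the 7 genes on the 3 arrays of ERF115OE, erf115ko and Col-0 (x axis), with point shapes for replicate numbers and black bars for the mean ± SD. In every panel the Col-0 arrays lie above all arrays of both lines, and the means run from ERF115OE, the lowest, through erf115ko to Col-0.

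AT4G27652, AT4G27654 and AT4G27657 lie next to each other on chromosome 4 in the gene table, with no annotated gene between them. AT4G27652 stood at 6.19, 6.64 and 5.98 in ERF115OE, 6.96, 6.85 and 6.88 in erf115ko, and 7.43, 7.62 and 7.33 in Col-0. Its 3 genotypes did not overlap at all. The log2 fold change of ERF115OE against Col-0 was -1.19 (SE 0.14).

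AT4G27654 had 2.88, 3.45 and 3.06 in ERF115OE, 3.33, 2.90 and 3.38 in erf115ko, and 3.80, 4.60 and 4.37 in Col-0. Both lines fell in the same range, well under Col-0, with a log2 fold change of -1.13 (SE 0.21) for ERF115OE and -1.06 (SE 0.21) for erf115ko against Col-0, and of -0.07 (SE 0.21) between the lines. All values of AT4G27654 were under the array medians, where RMA compresses differences, so the small gap between the lines is uncertain.

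AT4G27657 had the smallest difference between ERF115OE and Col-0 among the 7. It stood at 2.33, 2.21 and 2.24 in ERF115OE, 2.49, 2.29 and 2.49 in erf115ko, and 2.77, 2.80 and 2.66 in Col-0. Col-0 lay above both lines, which overlapped, and ERF115OE against Col-0 gave -0.48 (SE 0.08). All its values were well under the array medians, where RMA compresses differences.

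The genes on either side of these 3 gave smaller values. PEL1, the next gene on one side, stood at 0.0025 (SE 0.074, limma adjusted p = 0.991) for ERF115OE against Col-0, and AT4G27660, the next on the other side, at -0.21 (SE 0.12, limma adjusted p = 0.403). Within 5 annotated genes on each side of the 7 genes, 22 other genes were measured, with log2 fold changes of -0.21 to 0.37. Of these, 0 passed the limma threshold of an adjusted p of 0.05, and 1 had an unadjusted p under 0.05. Over all probe sets 1.7% passed as lower and 3.75% as higher, and 18.2% had an unadjusted p under 0.05. With shares this small, 0 of 22 passing does not set the neighbours apart.

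AT1G72240 separated all 3 genotypes. It stood at 5.04, 5.66 and 4.85 in ERF115OE, 6.06, 5.95 and 5.98 in erf115ko, and 6.77, 6.65 and 6.76 in Col-0. The ERF115OE mean of 5.18 ± 0.42 against 6.72 ± 0.07 in Col-0 is a log2 fold change of -1.54 (SE 0.16), or 2.91-fold lower. The erf115ko and Col-0 arrays were each tightly grouped.

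AT3G19680 separated them as well. Its values were 6.14, 5.59 and 5.61 in ERF115OE, 6.56, 6.48 and 6.70 in erf115ko, and 7.10, 7.15 and 6.998 in Col-0. The log2 fold change of ERF115OE against Col-0 was -1.30 (SE 0.13), or 2.46-fold lower.

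Taken as a group, the 7 genes had a median log2 fold change of -1.19 for ERF115OE against Col-0 (range -1.89 to -0.48), beside -0.02 over all probe sets. Because the genes were chosen on this comparison, all 7 were bound to be among its lower calls (limma adjusted p under 0.05), which made up 1.7% of all probe sets, while 3.75% were higher calls. All 7 also had ERF115OE arrays wholly below the Col-0 arrays, as had 10.6% of all probe sets. Both counts restate the choice of genes and support nothing. Of all calls in this comparison 68.8% were higher as deposited, and 56.7% with arrays centred on their medians. In whole root tips, fewer cells of a type and less RNA per cell cannot be told apart.

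**Figure D2:**
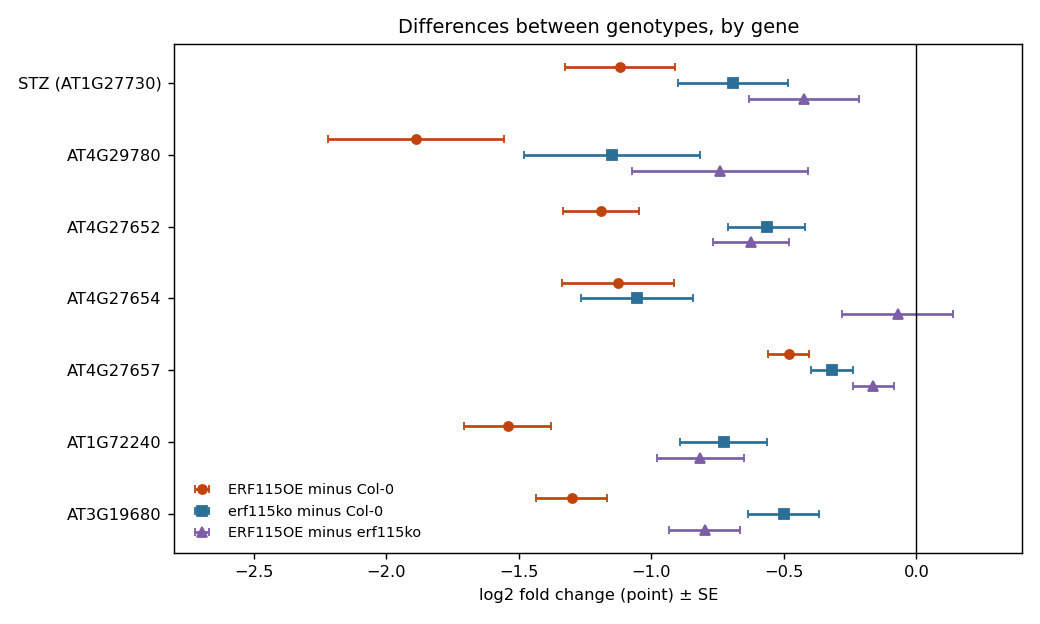
Log2 fold change (x axis, points, with bars of 1 SE from the fit over 9 arrays) of the 7 genes (y axis) for ERF115OE against Col-0 (circles), erf115ko against Col-0 (squares) and ERF115OE against erf115ko (triangles). Circles lie between -1.89 and -0.48 and squares between -1.15 and -0.32, and the triangle of AT4G27654, at -0.07, is the nearest to 0.

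The mutant was compared with wild type to see where the same transcripts stand without an intact ERF115 gene. The median of the 7 genes was -0.69 for erf115ko against Col-0 (range -1.15 to -0.32), beside 0.0021 over all probe sets, and 0 of the 7 passed the limma threshold. Only 0.00879% of all probe sets passed as lower and 0.0044% as higher. The nearest to passing was AT4G27654, 2.08-fold lower (-1.06, SE 0.21, limma adjusted p = 0.478). AT1G72240 followed at -0.73 (SE 0.16, limma adjusted p = 0.580), AT4G27657 at -0.32 (SE 0.08, limma adjusted p = 0.641) and AT4G27652 at -0.57 (SE 0.14, limma adjusted p = 0.691).

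The remaining 3 had values of the same sign. AT3G19680 stood at -0.50 (SE 0.13, limma adjusted p = 0.754), AT4G29780 at -1.15 (SE 0.33, limma adjusted p = 0.785) and STZ at -0.69 (SE 0.21, limma adjusted p = 0.835). All 7 were lower at an unadjusted p under 0.05, as were 2.15% of all probe sets, while 4.54% had such a p in either direction. In all 7 the erf115ko arrays lay wholly below the Col-0 arrays, as in 3.96% of all probe sets. This comparison uses the same 3 Col-0 arrays as the one that chose the genes, so the counts are no independent support. Without ERF115OE replicate 2, which enters only through the shared spread, AT1G72240 passed as lower in erf115ko (limma adjusted p = 0.0216).

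ERF115OE and erf115ko were then set against each other, a comparison that shares its overexpressor arrays with the first. The median of the 7 genes was -0.62 (range -0.82 to -0.07), beside -0.02 over all probe sets. AT1G72240 (-0.82, SE 0.16), AT3G19680 (-0.80, SE 0.13) and AT4G27652 (-0.62, SE 0.14) passed as lower in ERF115OE, 3 of 7, as did 1.03% of all probe sets, while 2.65% passed as higher. The same 3 genes had no overlap between the arrays of both lines, as had 10.6% of all probe sets in the downward direction. AT4G29780 (-0.74, SE 0.33), STZ (-0.42, SE 0.21), AT4G27657 (-0.16, SE 0.08) and AT4G27654 (-0.07, SE 0.21) did not pass. Only AT3G19680 passed without ERF115OE replicate 1 or 3, or without any one of the 3 erf115ko arrays, and without Col-0 replicate 1 AT4G27652 did not pass. Of all calls here 71.9% were higher as deposited and 61.2% with array weights.

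Some markers of cell types moved with the genotypes beside these genes. Of 8 root hair markers 2 were measured, EXPA7 and EXPA18, and their mean lay at 8.76 to 8.998 in ERF115OE, 8.04 to 8.16 in erf115ko and 7.84 to 8.29 in Col-0. Against Col-0, EXPA7 was higher in ERF115OE by 0.81 (SE 0.08, limma adjusted p = 0.00044) and EXPA18 by 0.85 (SE 0.17, limma adjusted p = 0.0137). Both also passed as higher against erf115ko. The meristem marker AGL42 averaged 4.62 ± 0.04 in ERF115OE, 5.13 ± 0.05 in erf115ko and 5.14 ± 0.19 in Col-0, and was lower in ERF115OE than in Col-0 (-0.52, SE 0.09, limma adjusted p = 0.0079). The other measured meristem markers did not pass in that comparison and overlapped Col-0. BBM stood at -0.30 (SE 0.14, limma adjusted p = 0.277) and AT5G48940 at -0.13 (SE 0.09, limma adjusted p = 0.511). RNA integrity was followed through the gap between 3' and 5' signal of the array's control genes. For actin it lay at 1.96 to 2.14 in ERF115OE, 2.19 to 2.24 in erf115ko and 2.08 to 2.31 in Col-0. For GAPDH it lay at 0.11 to 0.24, 0.11 to 0.31 and 0.17 to 0.23 in the same order. The 3 genotypes overlapped for GAPDH, while for actin ERF115OE overlapped Col-0 and lay wholly below erf115ko. The part of the markers and of the actin gap in the differences above was not tested.

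With the genotypes pooled, most of the genes varied more between arrays of a genotype than the typical probe set. The median within-genotype SD of the 7 was 0.25, beside 0.11 over all probe sets. AT4G29780 had an SD of 0.53, above that of 99.9% of probe sets, followed by AT4G27654 with 0.33 and STZ with 0.32, each above 99.1%. AT1G72240 (0.25, above 96.5%), AT4G27652 (0.22) and AT3G19680 (0.20) came next, and AT4G27657 had 0.088, above 31.9% of probe sets. In AT1G72240, AT4G27652 and AT3G19680 the spread came mostly from ERF115OE. The SDs in ERF115OE, erf115ko and Col-0 were 0.42, 0.05 and 0.07 for AT1G72240. They were 0.34, 0.06 and 0.15 for AT4G27652, and 0.31, 0.11 and 0.08 for AT3G19680.

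Several of the genes were high on the same array of a genotype. In ERF115OE, 5 of the 7 were highest on replicate 2, where STZ stood 0.45, AT4G29780 0.70, AT1G72240 0.47, AT4G27652 0.37 and AT4G27654 0.32 above the genotype mean. In Col-0, 6 of the 7 were highest on replicate 2, with AT4G29780 at 0.45 and STZ at 0.25. In erf115ko, 4 of the 7 were highest on replicate 1, with AT4G29780 at 0.63 and STZ at 0.30. Another 3 were highest on replicate 3, and 5 were lowest on replicate 2. With 3 arrays per genotype, some of 7 genes must share their highest array. Shares over all probe sets are not given here, so these counts are descriptions. Replicate numbers were not shown to pair arrays across genotypes.

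As correlations of deviations from the genotype means over the 9 arrays, the 21 pairs of genes had a mean r of 0.275, beside 0.015 over all pairs of probe sets, and 14 were above 0. STZ and AT4G29780 ran closest, with r = 0.96. Among the 5 genes other than AT3G19680 and AT4G27657, a division made after the values were seen, the 10 pairs had r of 0.39 to 0.96. AT3G19680 had negative r with those 5, from -0.62 to -0.12, the last of which is near 0. In ERF115OE it was highest on replicate 1 (6.14), where STZ and AT4G29780 were lowest. In Col-0 it was highest on replicate 2, as STZ and AT4G29780 were. AT4G27657 had r of -0.18 to 0.17 with them, and AT3G19680 and AT4G27657 had r = 0.67 with each other. These are descriptions over arrays that share labelling and normalization, with only 3 arrays per genotype.

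**Figure D3:**
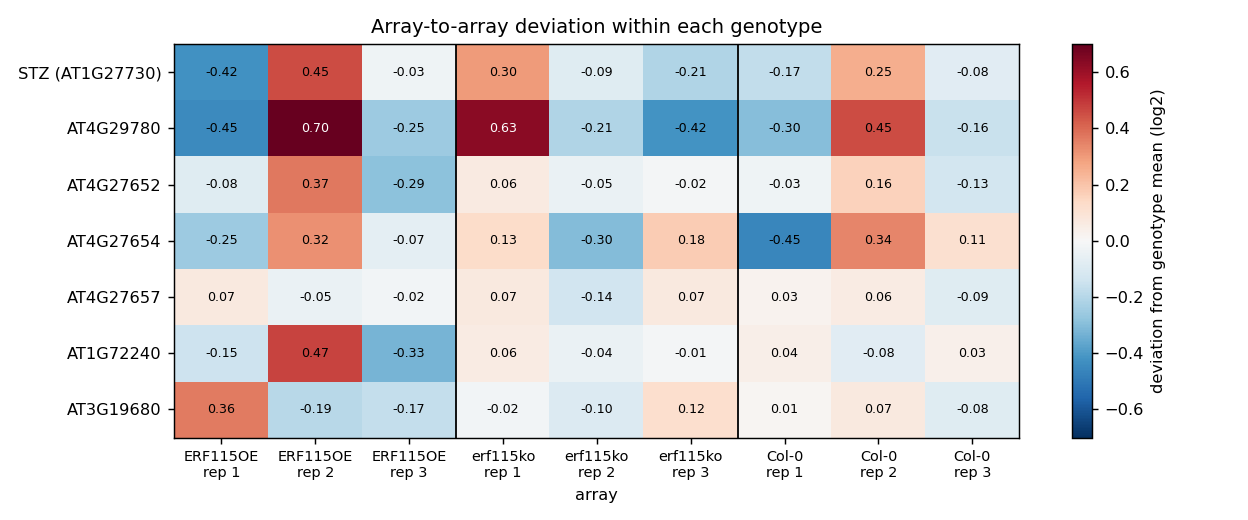
Deviation of each array (x axis) from the mean of its genotype, in log2 units (colour and printed number), for the 7 genes (y axis), with vertical lines between genotypes. STZ and AT4G29780 share their highest array in every genotype, ERF115OE replicate 2, erf115ko replicate 1 and Col-0 replicate 2, while AT3G19680 is high on ERF115OE replicate 1.

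The genes with the most similar pattern were sought among 375 probe sets that had 1 gene, were not among the 7 and spanned at least 1 log2 unit over the arrays. Set against the mean profile of the 7 over the 9 arrays, AT1G76640, also known as the calmodulin-like gene CML39, had the highest Pearson r (0.987), followed by EXO (0.971) and AT4G27280 (0.971). That profile carries the decrease on which the 7 were chosen, and the spread of r over the 375 is not given here. These r are therefore descriptions. AT1G76640 stood at 5.91 to 6.54 in ERF115OE, 6.42 to 7.16 in erf115ko and 7.43 to 7.77 in Col-0, and EXO at 6.25 to 6.39, 6.77 to 7.13 and 7.56 to 7.67 in the same order. AT4G27280 stood at 7.37 to 8.00, 8.18 to 8.57 and 8.93 to 9.40. With the genotype means removed AT1G76640 again led (r = 0.922), now followed by AT3G10930 (0.908) and AT1G15010 (0.907). The mean of AT1G15010 was 4.16 in ERF115OE, 3.60 in erf115ko and 3.78 in Col-0, so it followed the mean deviation of the 7 but not their order of genotypes.

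Relatives of the listed genes, other genes known for early touch, wound or jasmonate responses, and the CAMTA factors were compared next. They came from 8 lists of 106 loci in all, drawn up from knowledge of the families. Earlier results of these data were known when the lists were chosen, so their counts are no independent support. Only 15 of the 106 were measured, and neither the jasmonate list nor that of mitochondrial carriers related to DIC2 had any. The touch and wound list gave 4 of the 15 and the CAMTA list 3, and the rest were relatives of the listed genes. In ERF115OE against Col-0, 3 of the 15 rose and 0 fell, beside 3.75% and 1.7% of all probe sets, with a median of -0.006 and a range of -0.30 to 1.07. In limma 1 of the 15 was lower at an unadjusted p under 0.05, as were 8.92% of all probe sets.

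AT5G61590, also known as DEWAX, from the list of ERF genes related to ERF13, rose by 1.07 on the log2 scale (SE 0.17, limma adjusted p = 0.0048). Its arrays stood at 5.70, 5.25 and 5.75 in ERF115OE, 4.49, 5.19 and 4.82 in erf115ko, and 4.42, 4.57 and 4.51 in Col-0, so the overexpressor lay above both other genotypes. PUB24, a U-box ubiquitin ligase that dampens immune responses, rose by 0.60 (SE 0.14, limma adjusted p = 0.0343), with 3.94, 3.34 and 3.94 in ERF115OE, 3.04, 3.20 and 3.04 in erf115ko, and 3.08, 3.14 and 3.20 in Col-0. All values of PUB24 were under the array medians, where RMA compresses differences. Its call was lost in 8 of the 9 fits that each leave out 1 array (limma adjusted p up to 0.125), the exception being the fit without ERF115OE replicate 2, the array on which it was lowest among the overexpressors. AT1G67310, listed here among the CAMTA genes, rose by 0.44 (SE 0.08, limma adjusted p = 0.0091), with 6.78, 6.79 and 6.92 in ERF115OE, 6.58, 6.57 and 6.39 in erf115ko, and 6.46, 6.42 and 6.29 in Col-0.

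The named genes of the lists related to STZ, SZF1 and AT3G19680 did not pass. AT2G28200, from the list of C2H2 zinc fingers related to STZ, stood at -0.006 (SE 0.15), and AT5G12850, from the list of tandem CCCH zinc fingers related to SZF1, at -0.12 (SE 0.09). From the list of genes with a DUF1005 domain, drawn up around AT3G19680, AT1G50040 stood at -0.30 (SE 0.11, limma adjusted p = 0.189) and AT1G10020 at -0.04 (SE 0.07). AT1G50040 passed as lower without Col-0 replicate 1 (limma adjusted p = 0.0253).

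In erf115ko against Col-0, 0 of the 15 passed in limma and 3 had an unadjusted p under 0.05, beside 4.54% of all probe sets, with a median of -0.05. Named after their values were seen, the 3 differed in sign. PUB23 stood at -0.34 (SE 0.10), ERF91 at -0.32 (SE 0.10) and WRKY53, whose arrays overlapped Col-0, at 0.69 (SE 0.24). Against the mutant, 3 of the 15 were higher in ERF115OE and 0 lower in limma, beside 2.65% and 1.03% of all probe sets. At an unadjusted p under 0.05, 0 of the 15 were lower, beside 7.73% of all probe sets. The 3 higher genes were DEWAX (0.73, SE 0.17, limma adjusted p = 0.041), PUB24 (0.64, SE 0.14, limma adjusted p = 0.0323) and PUB23, another U-box ligase (0.53, SE 0.10, limma adjusted p = 0.013). PUB23, named after its value was seen, stood at 7.01, 7.03 and 7.19 in ERF115OE, 6.65, 6.54 and 6.45 in erf115ko, and 6.74, 7.07 and 6.86 in Col-0. DEWAX and PUB24 passed in 2 of the 9 fits without 1 array in this comparison and PUB23 in 7, the exceptions for PUB23 being ERF115OE replicate 3 (limma adjusted p = 0.057) and erf115ko replicate 3 (0.0665).

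**Figure D4:**
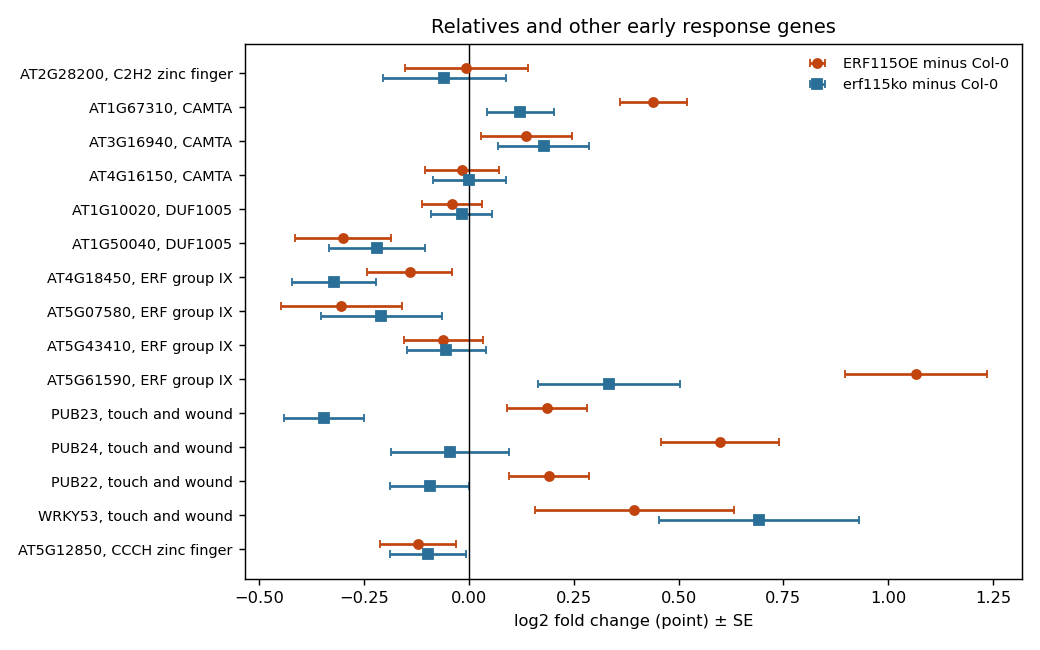
Log2 fold change (x axis, points, with bars of 1 SE) against Col-0 of the 15 measured genes of the lists of relatives, early response genes and CAMTA factors (y axis, with the list of each) in ERF115OE (circles) and erf115ko (squares). The circles of AT5G61590, PUB24 and AT1G67310 lie at 1.07, 0.60 and 0.44, and the lowest circle lies at -0.304.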

How the data were processed

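Biotin-labelled RNA, from 100 ng total RNA per sample, was measured on 9 arrays. The authors deposited log2 values, computed by RMA in affy 1.36 per the submitters' processing notes. RMA fits background, array distribution and probe effects over all arrays, so shifts common to most transcripts are lost. The array annotation's genome build is not given in the sources used here.

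Of 22810 probe sets, 64 controls were left out. Probe sets with 1 Entrez gene (13513) were matched through the RefSeq table of TAIR10.1 (13436 matched), used for names and neighbours; 503 with several genes were not named. The other 22746 entered 1 limma model (limma 3.58.1, R 4.3.3; 1 mean per genotype, 6 residual and 4.49 prior degrees of freedom, Benjamini-Hochberg over all, threshold 0.05), and the script was tested on simulated data. The number of arrays limits precision: the median SE was 0.088.

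Genes and lists were chosen with earlier results of these data known. Named are all measured genes of the group and, per list, up to 6 that passed against Col-0 or else the 2 with the smallest p; the likeness rule is in the text. Alternatives were median centring, quantile normalization, filters on the mean (at least 5, or the median), a trended robust prior, array weights, 6 arrays only, a replicate block and leaving out each array.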

Additional observations from a re-analysis of the deposited data

How the results depend on the processing

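The 7 genes were chosen on ERF115OE against Col-0, so their passing there in each refit of the same arrays shows no stability. The filters on the mean kept 5 of them, without AT4G27654 and AT4G27657. Their median against Col-0 lay between -1.35 and -1.10 with 1 array left out in ERF115OE and between -0.76 and -0.57 in erf115ko, where 0 to 1 passed. Against erf115ko the median lay between -0.70 and -0.43 with 1 to 3 passing, and only 1 passed with the 6 arrays compared. AT4G27654 against erf115ko ranged from -0.23 to 0.056 with 1 array left out. Calls among the 15 list genes against Col-0 went to 1 with either filter, which left 9 of them, and to 2 to 3 with 1 array left out. Against erf115ko they were 5 with array weights, 1 with 6 arrays and 0 to 3 with 1 array left out. AT2G28200 turned to 0.056 with array weights and lay between -0.15 and 0.14 with 1 array left out, and AT1G10020 between -0.081 and 0.033.

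Over all probe sets, ERF115OE against Col-0 gave 387 lower and 854 higher calls, 226 lower with 6 arrays, and 226 to 377 lower and 522 to 976 higher with 1 array left out. ERF115OE against erf115ko gave 235 and 602, 683 and 1079 with array weights, and 75 to 262 and 280 to 695 with 1 array left out. The mutant against Col-0 gave 2 lower and 1 higher, 2 higher with median centring or either filter, 4 and 3 with the trended prior, 7 and 3 with array weights, 0 lower with 6 arrays, and 0 to 5 and 0 to 1 with 1 array left out. The causes of these changes were not tested, beyond fewer samples or fewer genes in a fit.

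Replicate numbers were not shown to pair the arrays, and the check cannot exclude pairing. Same-numbered arrays deviated together at r over 0.1 in 2 of 9 pairs (range -0.21 to 0.14). Between erf115ko and Col-0 the 3 values were 0.138, 0.120 and 0.096, while pairs with ERF115OE lay between -0.21 and 0.058. In 8 of 18 combinations an array correlated best with its own number, out of 3 arrays to choose from. With a replicate block 7, 0 and 3 of the 7 genes passed in ERF115OE against Col-0, erf115ko against Col-0 and ERF115OE against erf115ko, and over all probe sets 379 were lower and 885 higher, 1 and 1, and 214 and 633. Under the block PUB24 against Col-0 had an adjusted p of 0.05004 and DEWAX against erf115ko 0.0652.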
